A study of Mus musculus with 20 samples.

Results

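The genes described here encode 10 calcium-binding, membrane-binding and cytoskeletal effector proteins, Vim, S100a4, S100a6, S100a10, S100a11, Lgals1, Anxa2, Anxa6, Tmsb4x and Actb. They were chosen by name, with earlier results of these data known, so shares of all genes beside their counts do not test the set. All 10 were found among the 25246 genes counted, mitochondrial genes and spike-ins not included. Their transcripts were followed in NK1.1- intraepithelial lymphocyte precursors (IELPs), thymocytes with an αβ T cell receptor and neither CD4 nor CD8 from which natural intraepithelial lymphocytes of the gut arise. The methods of the study give NK1.1- cells, which is followed here, although the design text deposited with the data writes NK1.1+. Single cells were sorted by CD122, the β chain of the receptors for IL-2 and IL-15, and by ZsGreen, which reports T-bet, and were read by CEL-Seq2, which counts the 3′ ends of transcripts.

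The design text gives 1 mouse for each of 3 genotypes, and all carried the T-bet ZsGreen reporter (TBGR). The TBGR mouse was 4 weeks old. It gave 2 libraries for each of 4 populations, first CD122-T-bet- cells (called CD122- below), then CD122+T-bet- cells, then CD122+T-bet int cells (T-bet int) and last CD122+T-bet high cells (T-bet high). The TBGR C-myc fl/fl mouse was 2 weeks old and had floxed C-myc alleles. Of its 8 libraries, 4 held both populations without T-bet and 4 held T-bet int together with T-bet high cells. The TBGR C-myc D/D Cd4 mouse, also 2 weeks old, lost C-myc through a Cre transgene driven by Cd4, and it gave 2 libraries for each population without T-bet. For both C-myc genotypes the ages are those of the labels, while the text of the study writes of mice, in the plural, aged 2 to 3 weeks. No label ties a library to an animal, so each genotype is taken here as 1 mouse, as the design text has it. Libraries are then repeats that show the spread of the assay and not that between animals, and neither populations nor genotypes were tested against each other. Age and genotype cannot be told apart between the TBGR mouse and the other mice, nor genotype and library between the C-myc fl/fl and C-myc D/D Cd4 mice.

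Of 1920 sorted wells, 1413 held at least 2000 transcripts and were kept, with medians of 3298 to 7809.5 transcripts per cell over 28 combinations of library and population. The repeat-derived transcript Gm10800 took between 7.03% and 53.2% of these transcripts. Across cells, 16 genes, called repeat-associated here and Gm10800 among them, rose and fell with Kcnq1ot1, Gm10715, Gm42418 or Gm10800. The study calls Kcnq1ot1 a marker of low-quality cells, and it removed genes correlated with any of these transcripts. In CD122- and CD122+T-bet- cells Gm10800 took 25.4% and 12.9% (TBGR), 42.8% and 26.8% (C-myc fl/fl), and 31.0% and 28.1% (C-myc D/D Cd4). With the 16 genes left out, 194 kept cells had under 2000 transcripts. Of the 120 CD122- cells of the C-myc fl/fl mouse, 66 then reached 2000. Levels are therefore given as transcripts per 1000000 transcripts without these 16 genes (CPM). Il2rb, which encodes CD122, stood at 10.3, 317, 438 and 583 CPM in the successive populations of the TBGR mouse, and Tbx21, which encodes T-bet, at 0, 1.61, 52.9 and 186. The 0 of Tbx21 allows up to 4.40 CPM. The 6 T cell markers in the tables summed to between 5233 and 9065 CPM in every population. Klrb1c, which encodes NK1.1, stood at 43.5 CPM in T-bet int and 637 in T-bet high cells, both from the TBGR mouse.

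Vimentin, encoded by Vim, forms the intermediate filaments of mesenchymal and blood cells. S100 proteins are small calcium sensors, and S100A10 forms a complex with annexin A2 (Anxa2) that links membranes to actin. Galectin-1 (Lgals1) binds surface glycans and modulates T cell survival, annexin A6 (Anxa6) organises membranes, thymosin β4 (Tmsb4x) holds monomeric actin in reserve, and Actb encodes β-actin. In T cells, several of these genes are known to rise with activation and with the move into tissues.

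In the GRCm38 genome, 4 of the genes lie on chromosome 3. S100a4 (chr3:90603771-90606045) and S100a6 (chr3:90612882-90624181) are 6.8 kb apart, and S100a11 (chr3:93520488-93526287) and S100a10 (chr3:93555080-93564643) are 28.8 kb apart. The 3′ ends of S100a4 and S100a11 resembled those of 1 and 2 other annotated genes, to which 1 and 0 transcripts were assigned, and those of the other 8 members resembled none. The promoter windows of 3 of these genes, from RefSeq (GRCm38.p6), are shown. S100a6 and S100a11 were chosen as those past the fold and lower where C-myc was deleted, among CD122+T-bet- cells, and S100a4 as the neighbour of S100a6. These calls were near the background, as 12.2% of all genes compared were lower. Both calls were lost when certain single libraries were left out. Each window runs from 250 bases before to 50 bases after an annotated start, 5′ to 3′ on the plus strand, at chr3:90603520-90603819 for S100a4, chr3:90612644-90612943 for S100a6 and chr3:93520246-93520545 for S100a11. Capitals mark the E-box CACGTG, to which Myc and its partner Max can bind.
S100a4: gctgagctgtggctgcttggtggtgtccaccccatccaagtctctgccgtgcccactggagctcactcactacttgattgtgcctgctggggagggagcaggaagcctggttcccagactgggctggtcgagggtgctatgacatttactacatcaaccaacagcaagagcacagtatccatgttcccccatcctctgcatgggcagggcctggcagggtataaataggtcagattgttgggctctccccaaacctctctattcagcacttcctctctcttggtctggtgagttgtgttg
S100a6: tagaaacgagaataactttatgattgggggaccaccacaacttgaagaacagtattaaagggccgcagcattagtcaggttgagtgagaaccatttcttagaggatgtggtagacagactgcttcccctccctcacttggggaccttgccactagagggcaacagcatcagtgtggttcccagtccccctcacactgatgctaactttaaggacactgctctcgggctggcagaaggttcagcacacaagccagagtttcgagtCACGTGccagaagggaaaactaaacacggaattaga
S100a11: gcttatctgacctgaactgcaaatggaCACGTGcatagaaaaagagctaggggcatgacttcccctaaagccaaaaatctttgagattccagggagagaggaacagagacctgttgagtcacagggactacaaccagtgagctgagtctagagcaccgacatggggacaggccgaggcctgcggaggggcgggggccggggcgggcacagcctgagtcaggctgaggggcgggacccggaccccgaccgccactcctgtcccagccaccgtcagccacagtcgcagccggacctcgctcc
The E-box was found in the S100a6 and S100a11 windows and not in those of S100a4, Vim, Anxa2 and Tmsb4x, and 7.15% of all 32851 windows held it. No window was at hand for S100a10, Lgals1, Anxa6 and Actb. The T-box and the CArG box, held by 1.28% and 1.63% of all windows, were in none of the 6 windows of members. These are matches of letters and do not show that a factor binds.

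The first question was how these genes differed between the stages that the sort defines. In the TBGR mouse, 9 of the 10 genes were higher in CD122+T-bet- than in CD122- cells and had their highest level in T-bet int or T-bet high cells, and Actb was the exception. The 8 members other than Tmsb4x and Actb summed to 1237 CPM in CD122- cells, 3034 in CD122+T-bet- cells, 5225 in T-bet int cells and 3743 in T-bet high cells. Their libraries ranged from 1217 to 1255, from 2636 to 3379, from 5049 to 5407 and from 3641 to 3788, so the populations did not overlap. In the C-myc fl/fl mouse the same sum was 967 in CD122- cells and 4404, 5481 and 8826 in the later populations, highest in T-bet high cells.

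**Figure D1:**
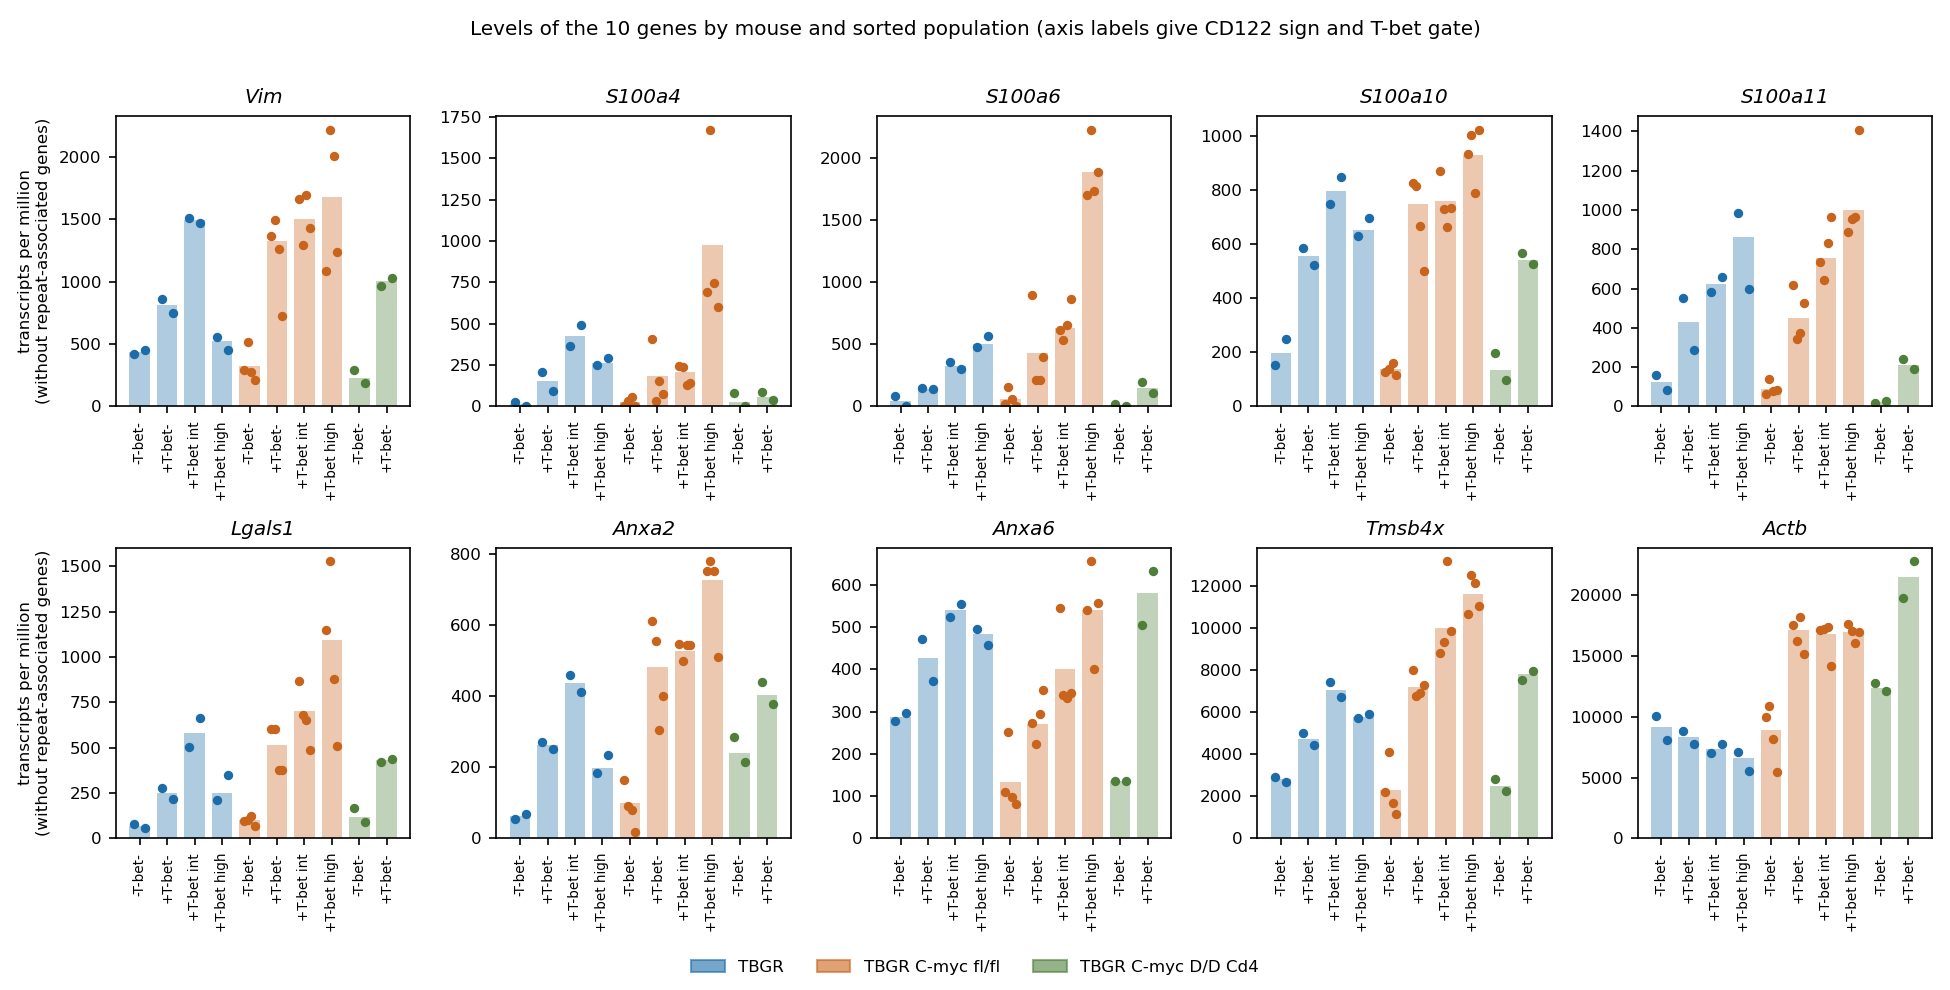
Level (CPM, without repeat-associated genes) for each of the 10 genes, by mouse and sorted population, with bars for the level over summed libraries and points for single libraries. S100a6 stood between 1704 and 2228 in the 4 libraries of T-bet high cells of the C-myc fl/fl mouse, above every other library.

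A gene is called past the fold where its log2 ratio between populations, relative to the median gene among those reaching 100 transcripts in either population, was at least 1 in size and the libraries did not overlap. Without that correction the median gene stood, over all transcripts, at 0.34, 0.07 and -0.22 on the log2 scale in the successive steps of the TBGR mouse and at 0.63, 0.08 and -0.22 in those of the C-myc fl/fl mouse. Intervals are exact 95% Poisson intervals and cover counting error alone.

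At the first step in the TBGR mouse, 6 of the 10 genes were past the fold and higher in CD122+T-bet- cells, against 6.11% of 2651 genes compared. They were S100a4, S100a6, S100a10, S100a11, Lgals1 and Anxa2. None was lower, against 4.64% of genes. The median relative log2 ratio of the 10 was 1.51, and that of all genes compared is 0 by construction.

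S100a4 stood at 27.7 and 3.12 CPM in the libraries of CD122- cells and at 210.2 and 93.3 in those of CD122+T-bet- cells. Its relative log2 ratio of 3.16 (2.35 to 4.25) was the largest of the 10 and rested on 194 against 11 transcripts. S100a6 stood at 80.3 and 6.24 against 149 and 138 CPM, with a relative log2 ratio of 1.59 (1.05 to 2.21). Neither gene's libraries overlapped, but library 1 of the CD122- cells was above library 2 for both. A single CD122- cell with 20837 transcripts held 24 of the 31 S100a6 and 8 of the 11 S100a4 transcripts of that population. It had no Il2rb transcript, 99 transcripts of T cell markers and 2 of myeloid markers. Without library 1 from CD122+T-bet- cells, S100a4 had a ratio of 2.54 on 54 transcripts and S100a6 one of 1.65 on 80, and without library 2 S100a6 had 1.69 on 99, all under the minimum of 100 for a call. Without library 2 from CD122- cells the ratio of S100a6 was 0.77, below the fold.

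Anxa2 and S100a10, partners in one complex, were both higher at this step. Anxa2 stood at 55.4 and 68.7 CPM in CD122- libraries and at 272 and 252 in CD122+T-bet- libraries, with a relative log2 ratio of 2.02 (1.57 to 2.54). S100a10 stood at 152 and 249.7 against 585.5 and 524, with a relative log2 ratio of 1.43 (1.17 to 1.72). S100a11, another S100 protein that binds annexins, stood at 161 and 84.3 against 549 and 289, with a relative log2 ratio of 1.72. Lgals1 stood at 77.6 and 56.2 against 279 and 214, with a relative log2 ratio of 1.82 (1.38 to 2.31). The libraries of all 4 genes were apart, and their calls held with any 1 library left out.

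Vim, Anxa6 and Tmsb4x were also higher in each CD122+T-bet- library than in each CD122- library, by less than 2-fold. Vim went from 424 and 452.5 to 863 and 752 CPM (relative log2 ratio 0.84, 0.65 to 1.03), and Tmsb4x from 2928 and 2696 to 5029 and 4432 (0.70, 0.63 to 0.78). Actb overlapped, at 10075.8 and 8051 against 8800.0 and 7725 CPM. Its relative log2 ratio was -0.19, and 0.15 over all transcripts without the correction by the median gene.

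**Figure D2:**
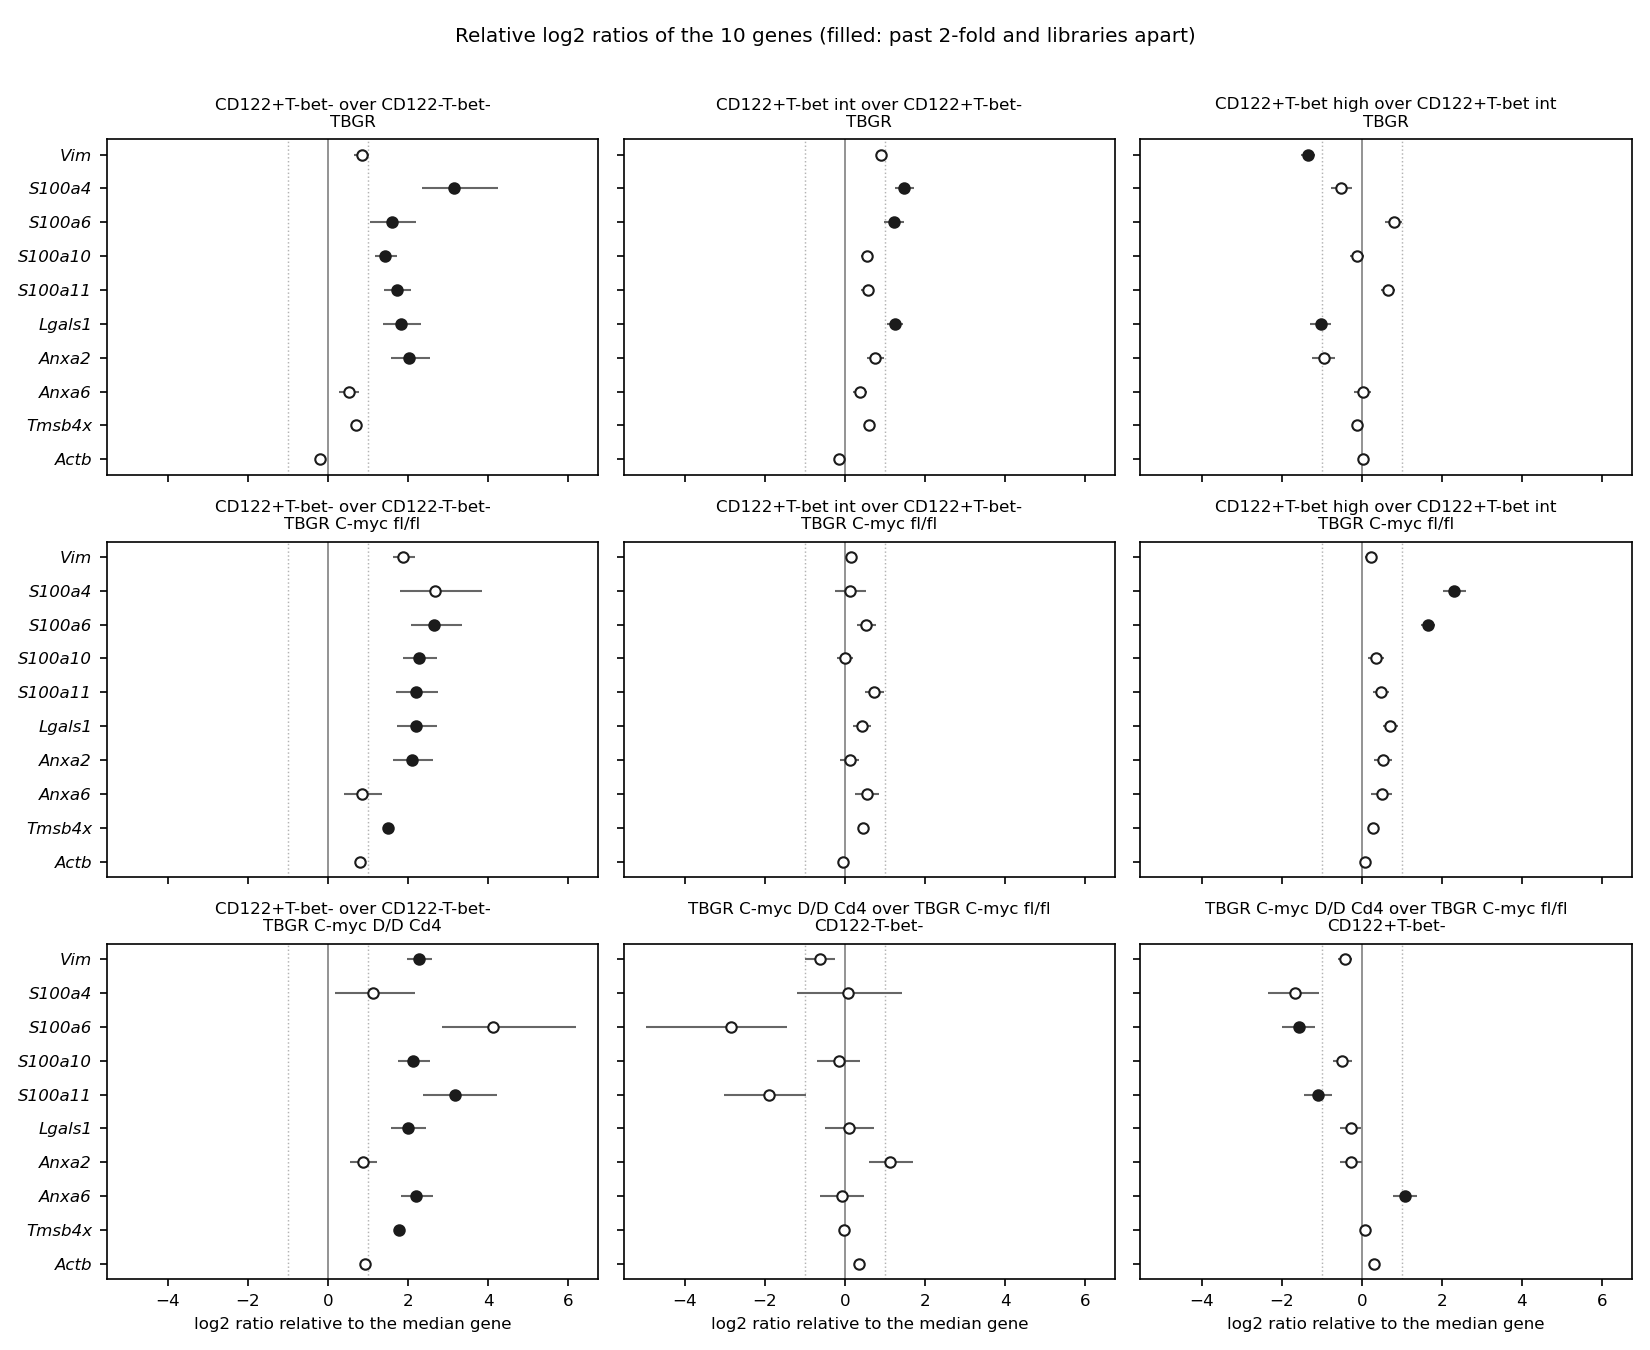
Log2 ratio relative to the median gene, with its 95% Poisson interval, for each of the 10 genes in the 9 comparisons. Filled points are past the fold, and 6 of 10 genes are filled at the first step in each of the 3 mice.

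At the second step of the TBGR mouse, from CD122+T-bet- to T-bet int cells, 3 of the 10 genes were past the fold and higher, against 1.92% of 2807 genes, and none was lower, against 3.35%. S100a4 reached 365 and 493 CPM in T-bet int libraries (relative log2 ratio 1.49, 1.25 to 1.73). S100a6 reached 356 and 301 (1.22), and Lgals1 501 and 666 (1.25, 1.06 to 1.45). When CD122+T-bet- library 2 was left out, the ratio of S100a4 was 0.98 and the call was lost. Every member except Actb was higher in both T-bet int libraries than in both CD122+T-bet- libraries, among them Vim at 1514 and 1471 CPM, with a relative log2 ratio of 0.91. The median of the 10 was 0.68.

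The third step of the TBGR mouse, from T-bet int to T-bet high cells, split the group. Vim and Lgals1 were past the fold and lower, 2 of 10 against 7.21% of 2387 genes, and none was higher, against 7.58%. Vim stood at 556 and 451 CPM in T-bet high libraries, with a relative log2 ratio of -1.33 (-1.51 to -1.16). Lgals1 stood at 209 and 347.5 (-1.03, -1.29 to -0.78), and it lost its call without library 1 of the T-bet high cells (-0.51) or library 2 of the T-bet int cells (-0.95). Without the first of these, S100a6 was past the fold and higher. Anxa2 was lower in both libraries too, at 184 and 233 CPM (-0.95, -1.25 to -0.67), and was past the fold without library 2 of the T-bet high cells or either T-bet int library. S100a4 was lower as well, at 251.1 and 296 (-0.51).

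S100a6 went the other way, to 479 and 565 CPM, with a relative log2 ratio of 0.80 (0.58 to 1.02). S100a11 had a relative log2 ratio of 0.66 (0.49 to 0.82). Its T-bet high libraries stood at 984 and 596.5 and its T-bet int libraries at 581.5 and 661, so they were apart only relative to the median gene. S100a10 and Anxa6 were lower in both T-bet high libraries by CPM and overlapped relative to the median gene, and Actb overlapped on both scales. The median of the 10 was -0.11. Library 2 of the T-bet high cells kept 55 of 96 wells with 14.1% Gm10800, against 92 wells and 7.03% in library 1.

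The first step was measured again in each of the 2-week-old mice. In the C-myc fl/fl mouse 6 of the 10 genes were past the fold and higher in CD122+T-bet- cells, against 2.63% of 952 genes, and none was lower, against 5.36%. They were S100a6, S100a10, S100a11, Lgals1, Anxa2 and Tmsb4x. Over all 952 genes, 25 were higher and 51 lower by the total of all transcripts, and 38 were higher and 20 lower by the total without the 16 repeat-associated genes, by which Vim was past the fold as well. The median relative log2 ratio of the 10 genes was 2.14.

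Each of these 4 libraries held both populations, so the ratio could be taken inside a library. S100a10 stood at 125.5, 137, 162 and 115 CPM in CD122- cells and at 825, 814.5, 667 and 502 in CD122+T-bet- cells. Its ratio inside the libraries ran from 1.89 to 2.63 on the log2 scale relative to the median gene. Vim ran from 1.16 to 2.18, Lgals1 from 1.49 to 2.59 and Anxa2 from 1.74 to 4.22, so all 4 of these genes were higher in CD122+T-bet- cells of every library.

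S100a6 had 3, 14, 7 and 0 transcripts in CD122- cells and 138, 34, 35 and 16 in CD122+T-bet- cells. Its ratio was above 0 in 3 libraries and -0.01 in library 2, and without library 1 it was 1.35 on 85 transcripts, too few for a call. S100a4 had 0, 3, 7 and 0 against 63, 5, 25 and 3 transcripts, below the minimum for a call, and it too was lower in library 2. Actb stood at 10010.7, 10879.8, 8131 and 5418 CPM in CD122- cells and at 17547, 16234, 18204 and 15151 in CD122+T-bet- cells, with a relative log2 ratio of 0.79 (0.73 to 0.85). Unlike in the TBGR mouse, the Actb libraries did not overlap.

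In the C-myc D/D Cd4 mouse 6 of the 10 genes were past the fold at this step, all higher, where the background was 17.8% of 1117 genes higher and 9.67% lower. They were Vim, S100a10, S100a11, Lgals1, Anxa6 and Tmsb4x. Vim stood at 289.8 and 191.7 CPM in CD122- libraries and at 969 and 1033 in CD122+T-bet- libraries (relative log2 ratio 2.27, 1.97 to 2.59). S100a11 stood at 17.04 and 29.2 against 242 and 193 (3.18, 2.37 to 4.23), and leaving out either CD122+T-bet- library gave 3.21 or 3.55 on 54 or 48 transcripts, too few for a call. Lgals1 stood at 165 and 91.0 against 419 and 439.5 (1.99), and when CD122+T-bet- library 2 was left out it had 2.14 on 83 transcripts, also too few. Anxa6 stood at 136.4 and 136.5 against 505 and 632.5 (2.21, 1.82 to 2.63).

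S100a6 had 4 transcripts in CD122- and 70 in CD122+T-bet- cells of this mouse, too few for a call, and its libraries were apart. Of the 14 S100a4 transcripts of its CD122- cells, 13 came from 1 cell that also held 10 transcripts of Trdc, which encodes the constant region of the δ chain of the γδ T cell receptor. Anxa2 went from 284 and 214.5 to 439 and 379 CPM, with a relative log2 ratio of 0.88 (0.54 to 1.23), where the other mice had 2.02 and 2.10. That difference was not tested.

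S100a10, S100a11 and Lgals1 were past the fold at the first step in all 3 mice. Of all genes compared, 6.11% (TBGR), 2.63% (C-myc fl/fl) and 17.8% (C-myc D/D Cd4) were higher in the single mice. The share higher in all 3 is not given here. With the cells that held a Trdc transcript left out, the 6 calls of the TBGR mouse held. In the C-myc fl/fl mouse 3 were left (S100a10, S100a11 and Lgals1), and 5 in the C-myc D/D Cd4 mouse. Shares of all genes called with these cells left out are not given here. For C-myc fl/fl, S100a6 (1.59) and Anxa2 (1.78) kept their size but their libraries overlapped, and Tmsb4x had 0.78. In the C-myc D/D Cd4 mouse S100a11 had 2.44 on 79 transcripts, too few for a call. Trdc itself stood at 283 CPM in CD122- and 13.5 in CD122+T-bet- cells of the C-myc fl/fl mouse. The summed level of 6 markers of CD4+CD8+ thymocytes fell at this step, from 989 to 107 CPM for TBGR, from 659 to 42.4 for C-myc fl/fl and from 1029 to 87.9 for C-myc D/D Cd4. The 7 markers of myeloid and dendritic cells summed, for TBGR, to 147 CPM in CD122- and 284 in CD122+T-bet- cells (libraries from 108 to 190.4 and from 180 to 374), and only Cst3 among them had 100 transcripts. In the other mice they summed to 80.2 and 86.7 (C-myc fl/fl) and to 78.5 and 125 (C-myc D/D Cd4). The part of these cells in the result was not tested.

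At the second step in the C-myc fl/fl mouse none of the 10 genes was past the fold, where 0.362% of 1106 genes were higher and 0.0904% lower. S100a11 and Tmsb4x were higher in all 4 T-bet int libraries than in all 4 CD122+T-bet- libraries, S100a11 at 735, 644, 833.5 and 965 CPM against 617, 345.5, 373 and 527 (relative log2 ratio 0.73, 0.50 to 0.97). The median of the 10 was 0.29. Without library 1 of the cells without T-bet, S100a6 was past the fold.

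At the third step in the C-myc fl/fl mouse, S100a4 and S100a6 were past the fold and higher in T-bet high cells, 2 of 10 against 3.34% of 1108 genes, and none was lower, against 1.26%. S100a4 stood at 245, 240.5, 128 and 144 CPM in T-bet int cells and at 693, 1673, 745 and 604 in T-bet high cells, with a relative log2 ratio of 2.31 (2.03 to 2.62). S100a6 stood at 618, 531, 655 and 865 against 1704, 2228, 1732 and 1889 (1.65, 1.48 to 1.83). Inside the 4 libraries the ratio of S100a4 ran from 1.58 to 2.90 and that of S100a6 from 1.26 to 2.18, and both calls held with any 1 library left out.

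For S100a4, Lgals1 and Anxa2 the direction at this step was opposite in these mice. In the C-myc fl/fl mouse Lgals1 (0.71) and Anxa2 (0.53) were below the fold. Their T-bet high and T-bet int libraries overlapped by the total without repeat-associated genes. The 4 pairs of libraries of the TBGR mouse gave ratios from -0.79 to -0.11 for S100a4, -1.49 to -0.34 for Lgals1 and -1.14 to -0.63 for Anxa2. The 4 libraries of the C-myc fl/fl mouse gave ratios from 1.58 to 2.90 for S100a4, 0.20 to 1.28 for Lgals1 and 0.05 to 0.76 for Anxa2. Vim, lower in every pair of the TBGR mouse, ran from -0.53 to 0.89 in the C-myc fl/fl mouse. S100a6 and S100a11 were above 0 in every pair and library of both mice. Age, genotype and library cannot be told apart here, and the difference was not tested.

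Of the listed markers of NKT cells, Klrb1c and Zbtb16, each moved its own way at this step. Klrb1c, whose product NK1.1 the sort left out by the methods, went from 43.5 to 637 CPM for TBGR and from 13.2 to 126.0 for C-myc fl/fl. Zbtb16, which encodes the transcription factor PLZF, went from 51.15 to 32.1 and from 69.1 to 24.3. The part of these cells in the result was not tested.

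**Figure D3:**
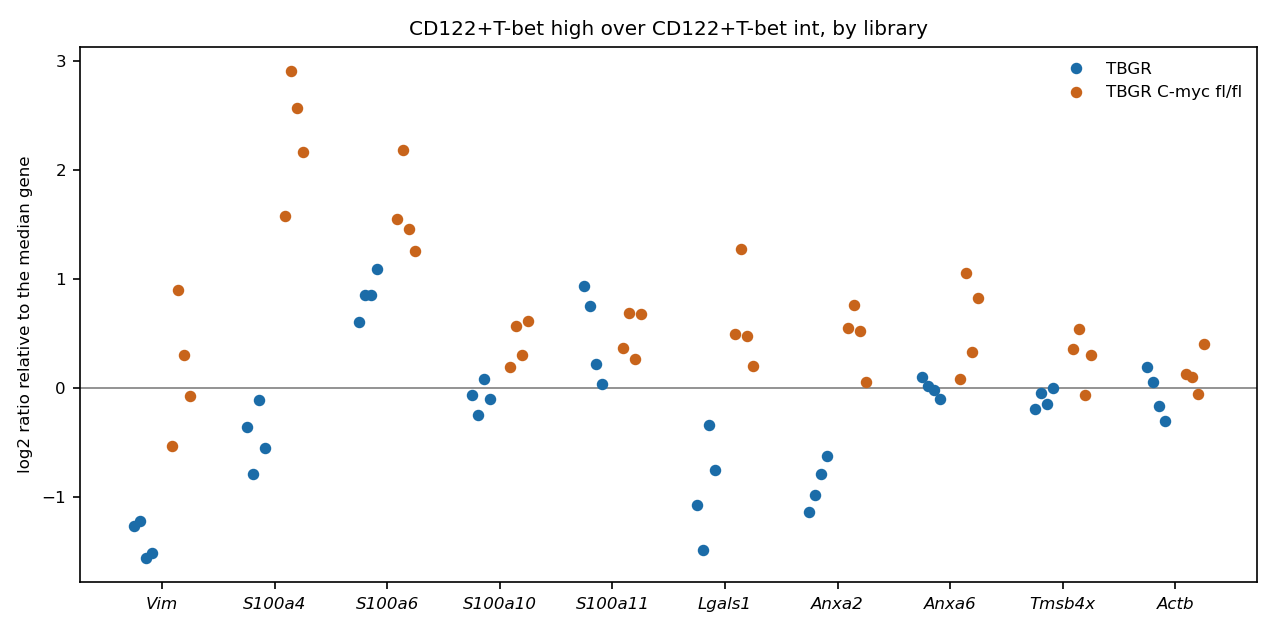
Log2 ratio of T-bet high over T-bet int cells relative to the median gene for each of the 10 genes, with 1 point for each of the 4 pairs of libraries of the TBGR mouse (pairs share libraries) and for each of the 4 libraries of the C-myc fl/fl mouse. The points of S100a4, Lgals1 and Anxa2 lie below 0 in the first and above 0 in the second mouse.

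The last question was what differed within a population where C-myc was deleted. Myc itself stood at 28.4 and 45.5 CPM in CD122- libraries and at 70.6 and 14.3 in CD122+T-bet- libraries of the C-myc D/D Cd4 mouse. In the C-myc fl/fl mouse its CD122- libraries ranged from 34.3 to 113 and its CD122+T-bet- libraries from 25.1 to 184, so the genotypes overlapped. Over summed libraries of CD122+T-bet- cells, Myc stood at 37.65 CPM (C-myc D/D Cd4) and 144.4 (C-myc fl/fl), on 18 and 75 transcripts. In CD122- cells it stood at 39.27 and 85.17, on 19 and 34 transcripts. CEL-Seq2 reads 3′ ends, and the exons that the deletion removes are not given in the sources used here, so these counts do not check the deletion.

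In CD122- cells none of the 10 genes was past the fold between the genotypes, where 2.81% of 924 genes were higher and 3.03% lower, and only Vim, Anxa2, Tmsb4x and Actb had the 100 transcripts needed. Anxa2 stood at 284 and 214.5 CPM in the C-myc D/D Cd4 mouse against 165, 91.5, 80.9 and 16.5 in the C-myc fl/fl mouse, with a relative log2 ratio of 1.13 (0.61 to 1.70). It was past the fold by the total without repeat-associated genes, and by the total of all transcripts without library 1 or 2 of the C-myc fl/fl mouse. With all libraries, by that total, the genotypes overlapped once the median gene was set to 0. S100a11 stood at 17.04 and 29.2 against 62.8, 137, 80.9 and 82.35 CPM, on 12 and 35 transcripts (-1.90, -3.02 to -0.96), too few for a call.

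In CD122+T-bet- cells S100a6 and S100a11 were past the fold and lower in the C-myc D/D Cd4 mouse, 2 of 10 against 12.2% of 1147 genes, and Anxa6 was higher, 1 of 10 against 15.3%. These counts are near the background. S100a6 stood at 197 and 111 CPM against 897, 209.8, 214 and 401 in the C-myc fl/fl mouse (relative log2 ratio -1.57, -1.98 to -1.18). S100a11 stood at 242 and 193 against 617, 345.5, 373 and 527 (-1.09, -1.44 to -0.75). Anxa6 stood at 505 and 632.5 against 273, 222, 294 and 351 (1.08).

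Single libraries decided these calls. S100a6 lost its call without library 1 of the C-myc fl/fl mouse (-0.89, on 70 and 85 transcripts) or library 2 of the C-myc D/D Cd4 mouse (-0.76, with overlap). S100a11 lost it without either library of the C-myc D/D Cd4 mouse (-0.96 and -0.52), and Anxa6 without library 1, 2 or 3 of the C-myc fl/fl mouse (0.89, 0.74 and 0.94). Trdc stood at 318 CPM in the C-myc D/D Cd4 and 13.5 in the C-myc fl/fl mouse in these cells, and 4 markers of γδ T cells summed to 1590 and 579.7 CPM, with libraries from 1486 to 1736 and from 256.9 to 981.4. The part of such cells in the result was not tested, and without the cells that held Trdc the ratio of S100a11 was -0.97, just short of the fold. S100a4 overlapped, at 85.8 and 39.3 against 409, 30.9, 153 and 75.25 CPM. Tmsb4x had a relative log2 ratio of 0.09 (0.02 to 0.16), with overlapping libraries, and Actb of 0.31 (0.27 to 0.35), with libraries apart.

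Cells of a population differed in how many of these genes they held. The 6 genes past the fold at the first step of the TBGR mouse, a set chosen after its values were seen, were counted in each cell after thinning to 1000 transcripts without repeats, which left out 36 cells. In the TBGR mouse none of the 6 was read in 79.5% of CD122-, 25.8% of CD122+T-bet-, 5.85% of T-bet int and 10.3% of T-bet high cells. At least 4 of the 6 were read in 12.3% of T-bet int and 6.16% of T-bet high cells (TBGR), and in 17.7% and 56.8% of those of the C-myc fl/fl mouse. In the C-myc D/D Cd4 mouse none was read in 62.2% of CD122- and 22.6% of CD122+T-bet- cells.

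**Figure D4:**
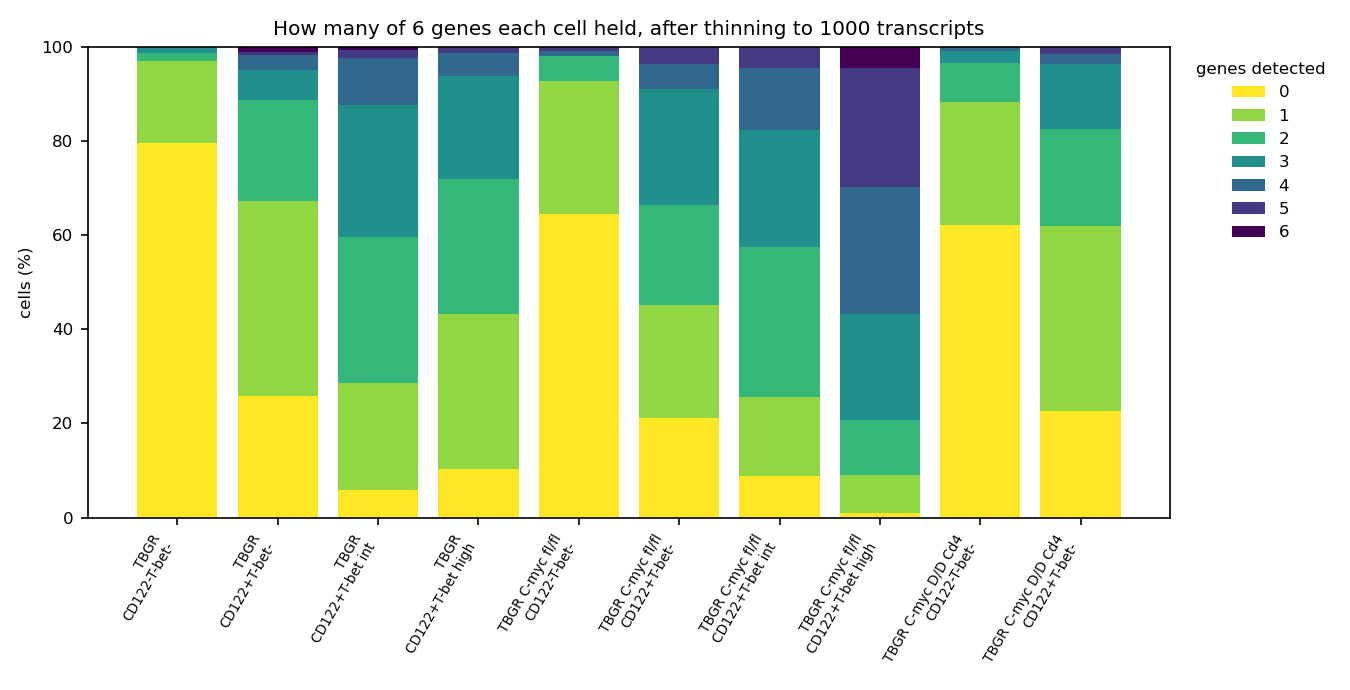
Share of cells, in percent, that held 0 to 6 of S100a4, S100a6, S100a10, S100a11, Lgals1 and Anxa2, by mouse and population, after each cell was thinned to 1000 transcripts. The share with none goes from 79.5% to 5.85% over the first 3 populations of the TBGR mouse, and 56.8% of T-bet high cells of the C-myc fl/fl mouse held 4 or more.

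S100a4 and S100a6 came from few cells where they were rare. Among the 186 CD122+T-bet- cells that came from the TBGR mouse, the 10 with the most transcripts of a gene, taken anew for each gene, held 73.2% of S100a4, 64.8% of S100a6, 23.1% of S100a10 and 17.2% of Tmsb4x transcripts. After thinning, S100a4 was read in 46.7% of the 15 cells of this population with S100a6 and in 4.09% of the other 171. For C-myc fl/fl these shares were 31.8% of 22 cells and 1.10% of 91. Over single CD122+T-bet- cells, S100a4 and S100a6 had a Pearson correlation of 0.53 for TBGR (186 cells) and 0.54 for C-myc fl/fl (113 cells). It was 0.085 for C-myc D/D Cd4 (137 cells), where S100a4 was read in 3.65% and S100a6 in 7.30% of cells after thinning. In T-bet int cells this pair had 0.12 (TBGR) and 0.28 (C-myc fl/fl), and in T-bet high cells 0.33 and 0.23. It had 0.58 in CD122- cells of the C-myc fl/fl mouse. There S100a4 was read in 1.82% and S100a6 in 2.73% of 110 cells after thinning, so this value rests on very few cells. Anxa2 and S100a10 had 0.01 and 0.05 in CD122+T-bet- cells of TBGR and C-myc fl/fl. Over all populations and mice they ranged from -0.04 to 0.17. These cells share libraries, the counts are sparse, and the values are a description.

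On 1920 barcodes to which no cell was sorted, Actb was read on 16.4%, Tmsb4x on 8.18% and S100a6 on 0.573%. S100a6 was read in 3.45% of the CD122- cells of the TBGR mouse before thinning, at a depth far above that of these barcodes.

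The genes most like each member were sought among 6173 genes over the 8 libraries of the TBGR mouse, so the first value is the highest of that search. The Pearson correlation over the 20 combinations of library and population of the other mice is given second. The libraries span 4 stages, so these values describe stages more than replicates. Tmsb4x was most like Lcp1, which encodes the actin-bundling protein L-plastin (0.99 and 0.94). Anxa6 was most like Cdc42 (0.99 and 0.83), S100a6 like the chemokine receptor gene Cxcr6 (0.98 and 0.68), S100a11 like Tspo (0.98 and 0.65) and S100a10 like Arl2bp (0.97 and 0.77). S100a4 was most like Smpdl3a (0.99 and 0.68) and Lgals1 like the ribosomal protein gene Rpl7 (0.98 and 0.41). For Actb the nearest gene, Tcof1 (0.99), had -0.70 in the other mice, and for Vim the nearest, Cyb5b, had -0.46. Anxa2 was most like Rasa3 (0.99 and 0.56). The second nearest genes, here with the value in the other mice alone, were Cox6a1 for Vim (0.61), Chn2 for S100a4 (0.58) and Vars for S100a6 (0.27). They were Neurl3 for S100a10 (0.75), Esyt1 for S100a11 (0.82) and Ywhaq for Anxa2 (0.535). For Anxa6 it was Clcn3 (0.59), for Tmsb4x Gnb2l1 (0.30) and for Actb Tmc6 (0.50). Tmsb4x and Actb, both of the actin pool, had -0.60 over the libraries of the TBGR mouse and 0.87 over the others.

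Other genes of the same families gave the members a frame. Of 10 other S100 genes and 9 other annexins in the tables, none had 100 transcripts in either population of any comparison. The most abundant were S100a13 with 402 and Anxa5 with 448 transcripts over all cells. Lgals3, which encodes galectin-3, was past the fold and higher at the first step, from 24.9 to 169.5 CPM for TBGR (relative log2 ratio 2.67) and from 12.5 to 291 for C-myc fl/fl (4.25). Lgals9 was lower in the C-myc fl/fl mouse, from 506 to 206 (-1.45).

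Of 10 partners and membrane linkers, 8 had enough transcripts at the first step of the TBGR mouse. Of these, 2 were past the fold and higher, where 6.11% of all genes were. Ahnak, a large scaffold that binds S100A10 and annexin A2, went from 17.6 to 106 CPM (relative log2 ratio 2.48), and Emp3 from 57.2 to 183 (1.61). Ahnak was higher again at the second step, at 351 (1.75), and at the third, at 743 (1.26), where Cd44, a receptor for hyaluronan, went from 75.9 to 442 (2.71). At the third step in the C-myc fl/fl mouse, Ahnak went from 265 to 659 (1.38) and Cd44 from 59.2 to 239 (2.07). In the 2-week-old mice Emp3 was higher at the first step (1.71 and 1.33), and so was Ahnak in the C-myc D/D Cd4 mouse (2.63). Of all genes, 2.63% were higher there for C-myc fl/fl and 17.8% for C-myc D/D Cd4. No partner was past the fold and lower in any comparison.

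Of 34 genes of actin and its dynamics, 29 had enough transcripts at the first step of the TBGR mouse. Capg (1.40) and Cotl1 (1.11) were past the fold and higher, and Gsn, which encodes the actin-severing protein gelsolin, was lower (-1.82), counts near the background of 6.11% and 4.64% of all genes. In the C-myc D/D Cd4 mouse 9 of 23 were higher, led by Cotl1 (2.28), Vasp (2.17), Lsp1 (1.78) and Arpc1b (1.74), where 17.8% of all genes were. The median of this list was 0.07 for TBGR, 0.51 for C-myc fl/fl and 0.90 for C-myc D/D Cd4. At the third step of the TBGR mouse Capg was higher again (2.17). Of 16 genes of myosin, tropomyosin and adhesion, Zyx, which encodes the adhesion protein zyxin, was past the fold at the first step in all 3 mice (1.36, 1.61 and 1.98). There 6.11%, 2.63% and 17.8% of all genes were higher. Myo1f, a class I myosin, was higher at the second step (1.97) and at the third step (1.13) of the TBGR mouse and at the third step of the C-myc fl/fl mouse (2.07). Actn1 was lower at the third step of the TBGR mouse (-1.51).

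Among tubulin and lamina genes, Tuba1c (1.60) and Stmn1 (1.05) were higher and Tuba4a (-1.33) lower at the first step of the TBGR mouse. At that step of the C-myc D/D Cd4 mouse, Stmn1 (-1.84) and Tuba1a (-1.10) were past the fold and lower, where 9.67% of all genes were. Genes of this list were lower together with Vim at the third step of the TBGR mouse, 5 of 7 past the fold against 7.21% of all genes. They were Stmn1, which encodes a destabiliser of microtubules (784 to 89.9 CPM, -2.93), Tubb5 (-1.39), Tuba1a (-1.33), Lmnb1 (-1.28) and Tuba1c (-1.23). None of 5 was past the fold at that step in the C-myc fl/fl mouse, where 3.34% of all genes were higher and 1.26% lower. In CD122+T-bet- cells, Stmn1 and Tubb5 were lower in the C-myc D/D Cd4 than in the C-myc fl/fl mouse (-2.40 and -1.47), where 12.2% of all genes were.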

How the data were processed

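The genes and the lists of related genes were chosen with earlier results of these data known. The authors deposited, for each library, a table of estimated counts per gene and barcode, in which reads aligned with bwa 0.6.2-r126 (after bcl2fastq 2.17.1.14, per the submitters' processing notes) to transcripts were collapsed by unique molecular identifiers of 6 bases and corrected for identifiers that met by chance. These estimated counts were rounded to whole transcripts. Each table holds 192 barcodes, of which 96 had no cell. The population of a well was read from the sort annotation deposited with each library. Cells were sorted singly and no doublet caller was run. Wells with at least 2000 transcripts without mitochondrial genes and spike-ins were kept, and depth per library is given with the results.

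Transcripts were summed per library and population. Ratios used a pseudocount of 0.5 transcripts and were then centred on the median gene, taken over genes reaching 100 transcripts in either population. Repeat-associated genes were those correlated above 0.65 with Kcnq1ot1, Gm10715, Gm42418 or Gm10800. Leaving them out of the total was chosen after seeing the data, and calls follow the total of all transcripts. Of each list, only some of the genes past the fold were named, so the named genes are not all that were called. For each member the genes most correlated in log2(CPM + 10) were named. One such gene and one list are not reported here. Intervals and limits cover counting error only. The calculation was tested on simulated data. Python 3.11.15, numpy 2.4.6, pandas 2.3.3 and scipy 1.17.1 were used.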

Additional observations from a re-analysis of the deposited data

Results flagged for a closer look

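In the C-myc fl/fl mouse, 7 of 40 sets of 4 libraries had 1 library far from the other 3, its gap to the nearest being a larger share of the range than Dixon's 95% critical value. Chance gives about 1 in 20, but the 40 sets are 10 genes read in the same libraries and are not independent. Actb stood at 14141.7 CPM in library 4 of T-bet int cells, Anxa2 at 511 in library 4 of T-bet high cells and at 499.1 in library 2 of T-bet int cells. Anxa6 stood at 545.5 in library 1 of T-bet int cells and at 251.7 in library 2 of CD122- cells. S100a11 stood at 1409 in library 4 and S100a4 at 1673 in library 2 of T-bet high cells. Library 4 of the T-bet high cells had 38.5% Gm10800, the most of the 4.

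From T-bet int to T-bet high cells, every pair of libraries of the TBGR mouse moved one way and every library of the C-myc fl/fl mouse the other for 3 genes. The relative log2 ratios were -0.510 and 2.313 for S100a4, -1.025 and 0.711 for Lgals1, and -0.949 and 0.529 for Anxa2. Lgals1 and Anxa2 were not past the fold in the C-myc fl/fl mouse, nor S100a4 and Anxa2 in the TBGR mouse. The difference was not tested.

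Transcripts of the 10 genes were also read outside the kept cells, 720 on barcodes to which no cell was sorted and 10565 in the 507 wells with under 2000 transcripts.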

How the results depend on the processing

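No paired test was run, because the results come from no test. Calls compared libraries without pairing them, also where a library held both populations. The ratios inside such libraries of the C-myc fl/fl mouse stand as values with the results. Of 188 values of the median of the 10 genes under other settings, 176 stayed within the spread between libraries. No gene past the fold changed sign under any setting. Of 188 counts of genes past the fold, 162 stayed within 1.5 times the reported count. Shares of all genes past the fold under the other settings are not given. A loss of calls among the 10 genes thus cannot be told from a general loss.

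Without the correction by the median gene, the median at the third step of the TBGR mouse was -0.328 and 1 gene was past the fold between the C-myc genotypes in CD122- cells. With equal weight per cell, 1 gene was past the fold at the third step of the TBGR mouse and 1 in each comparison of the C-myc genotypes. With cells thinned to 2000 transcripts, 2 genes were past the fold at the first step of the TBGR mouse, 1 at that of the C-myc fl/fl mouse and 1 between the C-myc genotypes in CD122+T-bet- cells, and the median at the first step of the C-myc D/D Cd4 mouse was 1.638. Thinning leaves fewer genes with 100 transcripts, but not every lost call was short of transcripts. Tmsb4x at the first step of the C-myc fl/fl mouse had 1304 and 346 transcripts (1.13), and its libraries overlapped. S100a11 between the C-myc genotypes in CD122+T-bet- cells had too few, and its ratio was -0.73, with overlap. With a minimum of 1000 transcripts per cell 1 gene was past the fold between the C-myc genotypes in CD122- cells, and with 3000 transcripts 1 at the third step of the TBGR mouse. Without cells that held Trdc, 3 genes were past the fold at the first step of the C-myc fl/fl mouse, and the median of the C-myc D/D Cd4 mouse was 1.613. With a minimum of 10 transcripts per gene, the median at the third step of the TBGR mouse was -0.222, and 2 genes were past the fold between the C-myc genotypes in CD122- cells.

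The next settings were chosen after seeing the data. By the total without repeat-associated genes, and without the top cell of each gene, 1 gene was past the fold between the C-myc genotypes in CD122- cells. With 2000 transcripts per cell without repeats, 1 was at the third step of the TBGR mouse. With cells thinned to 1000 transcripts without repeats, the median was 1.957, 0.405 and -0.400 at the successive steps of the TBGR mouse, that of the first step in the C-myc D/D Cd4 mouse was 1.420, and that between genotypes in CD122+T-bet- cells turned from -0.349 to 0.258, and in CD122- cells from -0.047 to 0.483. There 1, 0 and 1 genes were past the fold at the steps of the TBGR mouse, 1 and 2 at the first step of the C-myc fl/fl and C-myc D/D Cd4 mice, and 1 in each comparison of the C-myc genotypes, which was Actb, while S100a6, S100a11 and Anxa6 were not.

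With 1 library left out, the median at the third step of the TBGR mouse ranged from -0.278 to -0.111, and that at the first step of the C-myc D/D Cd4 mouse from 1.353 to 2.241. Genes past the fold numbered 0 to 1 at the second step of the C-myc fl/fl mouse and between the C-myc genotypes in CD122- cells, and 1 to 3 in CD122+T-bet- cells. Calls lost without a single library, or without the cells that held Trdc, are given with the results. The ratios behind other lost calls are given only in part, and the cause of the other changes was not tested.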
